A study of Mus musculus with 12 samples.

Results

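The genes described here encode 9 transcription factors and coregulators listed together as factors of fat depot identity: Prdm16, Zic1, Ebf1, Ebf2, Ebf3, Lhx8, Tbx15, Eya1 and Tbx1. They were taken by symbol from the annotation of the array, using probe sets that carry 1 gene symbol only. All 9 had at least 1 such probe set, 24 probe sets in all, among 18193 genes and 34945 probe sets of 1 symbol. Of the 9, 7 passed the filter on dim signals and were tested, and Lhx8 and Tbx1 did not. On their brightest probe sets, which stood for the genes, Prdm16 and Zic1 passed only through their brown arrays. The array count of Eya1 above the filter level came from all 6 white arrays and 1 brown array. In this way a difference between lines was built into the passing of these 3.

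The study measured RNA of cultured mouse fat cells on 12 Affymetrix 3' expression arrays, 3 in each of 4 groups. Serum was at 10% in every group. White preadipocytes were 3T3-L1 cells, an established mouse line, harvested at day 0, which was 2 days after confluence. White adipocytes were 3T3-L1 cells at day 10, after 3 days with insulin at 1 µg/mL, IBMX at 0.5 mM and the steroid dexamethasone at 1 µM, and then further culture. Brown preadipocytes came from a brown fat cell line at day 0 (2 days after confluence), and brown adipocytes from that line at day 8, after 3 days with insulin at 20 nM, the thyroid hormone T3 at 1 nM, indomethacin at 125 µM, and IBMX and dexamethasone at the white doses. Each cell type is 1 line, the strain, sex and origin of the brown line are not given in the labels, and line, hormone mix and harvest day change together between brown and white adipocytes. The labels do not say whether the 3 arrays of a group are separate cultures, so p-values measure the spread between these arrays, which may be technical.

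These factors act before and during fat cell formation, when progenitors of different embryonic origin commit to white, beige or brown fat. Prdm16 is a zinc-finger coregulator that binds partners such as C/EBP-beta and switches on brown fat genes. Ebf2 is a member of the early B-cell factor family that marks brown fat progenitors and opens brown fat genes for Pparg. Zic1 and Lhx8 are used in mice as markers of classical brown fat and Tbx1 as a marker of beige cells, and Tbx15 is a T-box factor that patterns fat depots.

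Promoter sequence is shown for the members with the plainest pattern over the arrays: Prdm16 and Zic1, whose brightest probe sets gave signal in the brown line and none above the filter level in white cells, and Lhx8, which was below that level in every group. The 250 bases before the start are given 5' to 3' from RefSeq on the mouse build GRCm38.p6, and capitals mark CG dinucleotides. For Prdm16 the start used lies inside the RefSeq extent of the gene (chr4:154316122-154637360), and so does the stretch shown. The Zic1 stretch lies inside the RefSeq extent of another gene, Zic4 (chr9:91365631-91389351).
Prdm16, minus strand of chr4:154636874-154637123: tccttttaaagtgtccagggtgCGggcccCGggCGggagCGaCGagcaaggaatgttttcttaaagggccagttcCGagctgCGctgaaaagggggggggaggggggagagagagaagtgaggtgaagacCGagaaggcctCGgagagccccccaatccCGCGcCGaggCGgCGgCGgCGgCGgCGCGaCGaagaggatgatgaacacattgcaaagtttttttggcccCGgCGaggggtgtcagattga
Zic1, minus strand of chr9:91365769-91366018: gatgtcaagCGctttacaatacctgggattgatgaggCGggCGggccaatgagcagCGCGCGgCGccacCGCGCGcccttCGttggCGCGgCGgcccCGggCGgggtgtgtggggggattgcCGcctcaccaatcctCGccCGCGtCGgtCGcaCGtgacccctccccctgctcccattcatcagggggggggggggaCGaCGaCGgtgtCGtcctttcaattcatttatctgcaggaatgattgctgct
Lhx8, minus strand of chr3:154330561-154330810: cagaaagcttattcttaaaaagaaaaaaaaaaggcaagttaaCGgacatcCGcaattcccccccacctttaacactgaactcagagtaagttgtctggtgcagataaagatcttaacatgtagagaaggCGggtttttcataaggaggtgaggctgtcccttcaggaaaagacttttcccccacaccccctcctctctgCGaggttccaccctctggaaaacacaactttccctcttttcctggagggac

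The Prdm16 stretch held 22 CG dinucleotides and the Zic1 stretch 27, against a median of 6.0 over 32851 RefSeq promoters, and the Lhx8 stretch held 4. The other promoters of the factors held 9 and 14 (Ebf1), 43 (Ebf3), and 17 and 10 (Tbx1). A link between CG count and signal was not tested. Of the 9 factors, 6 had a promoter in the table, 8 promoters in all; Ebf2, Eya1 and Tbx15 had none. The motif searched for, a site bound by EBF proteins, was TCCC, any 2 bases and GGGA, which reads the same on both strands. It was in 0 of these 8 promoters of 300 bases (250 before and 50 after the start), in 0 of 16 promoters of brown fat target genes, and in 297 (0.904%) of all promoters. No match says only that these letters are not in this window.

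Signals are the deposited linear intensities, and means carry the SD of 3 arrays. Differences are in log2(signal + 16) with the SE of a limma fit over all 4 groups, and a call is a Benjamini-Hochberg adjusted p under 0.05 over the 13752 genes tested. The filter level was the 40th percentile of each array, a signal of 32.9 to 41.2. Over the 25833 probe sets tested singly, 55.4% were called in white and 53.1% in brown differentiation, 44.6% for the difference between these changes, and 49.6% and 55.1% between preadipocytes and between adipocytes. Groups did not overlap for 66.1% and 65.2% of genes in white and brown differentiation, and for 62.0% and 65.6% between preadipocytes and between adipocytes. Levels of different probe sets are not compared, because each set of probes has its own brightness. These are bulk measurements, in which fewer cells of a type and less RNA per cell cannot be told apart.

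**Figure D1:**
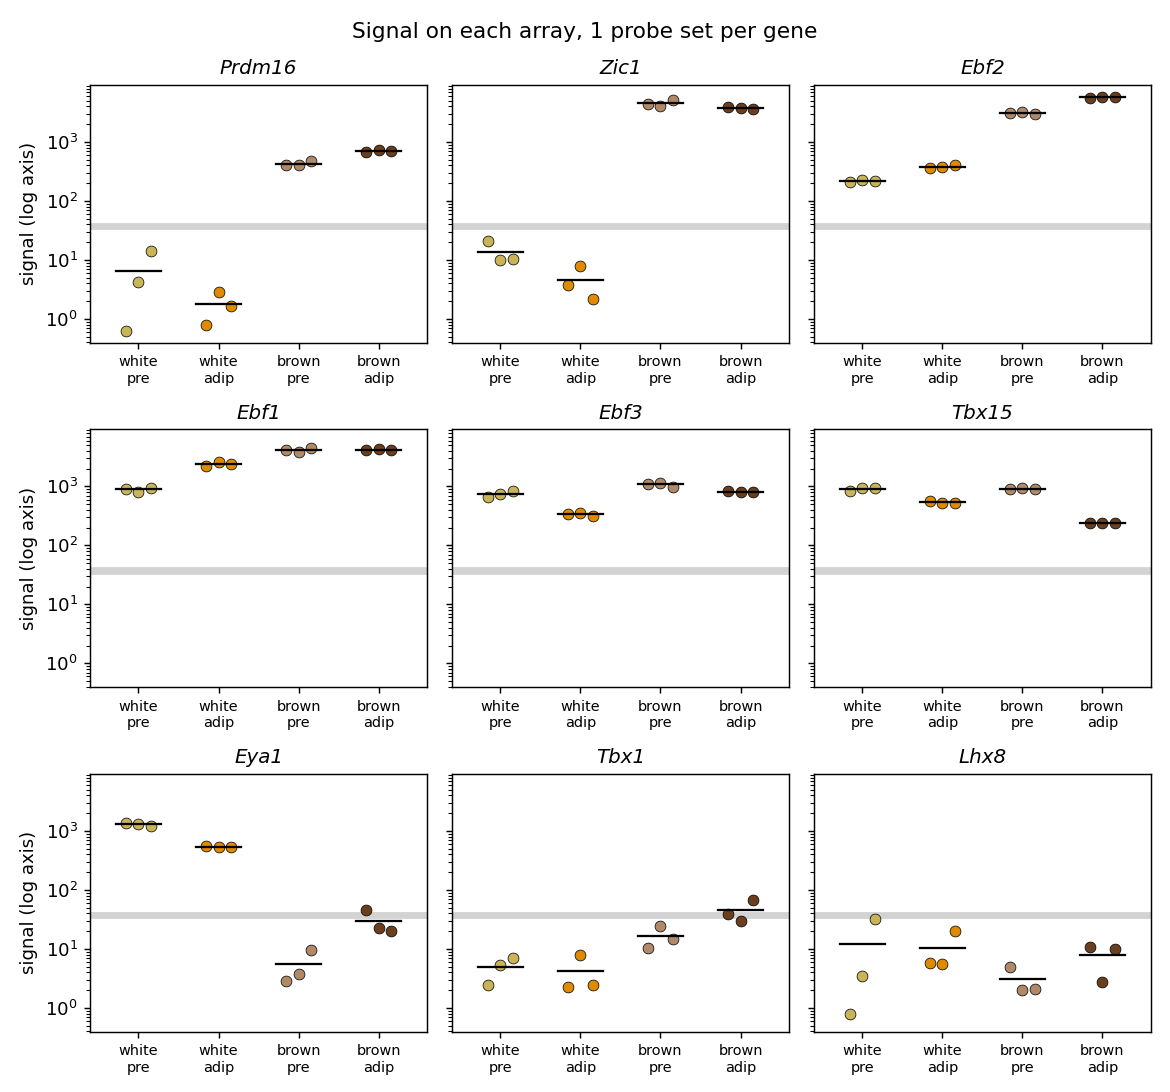
Signal on each of the 12 arrays (points, log axis) for the probe set that stands for each gene, with group means as lines and the filter level of 32.9 to 41.2 as a grey band. Prdm16 and Zic1 lie above the band on brown arrays only, Eya1 lies far above it on white arrays, and Lhx8 lies below it on all 12.

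The cells matched their labels in part. All 7 adipocyte markers rose with white differentiation (median log2 change 6.08), and 5 of 7 rose with brown differentiation (median 1.49). After differentiation 2 of 7, Cidec and Lipe, were lower in brown than in white cells. Before induction, however, all 7 were already higher in the brown than in the white preadipocytes (median difference 2.77), and Adipoq stood at 18695 ± 2319 in brown against 31.9 ± 16.4 in white preadipocytes. Of 5 preadipocyte markers on the array, 5 fell with brown and 3 with white differentiation. The 4 endothelial markers were below the filter. Of 5 macrophage markers 4 were tested. Cd68, also found in other cells, rose in white cells (1.01) and was higher in brown preadipocytes (0.87), Cd14 fell in both lines and was lower in brown cells at both stages, Csf1r and Adgre1 passed in no comparison, and Itgam was below the filter. The part of other cell types in the results was not tested. The actin 3' to 5' signal ratio, a sign of RNA length, was 1.36 to 1.46 and 1.43 to 1.56 on white and brown preadipocyte arrays and 2.08 to 2.35 and 2.39 to 2.48 on adipocyte arrays. The actin ratio was higher after differentiation in both lines. The mean Gapdh ratio went from 0.861 to 0.828 in white and from 0.775 to 0.814 in brown cells. The mean Pcx ratio rose from 3.63 to 7.64 in white cells, without overlap (2.92 to 4.31 and 5.80 to 9.46). In brown cells it went from 5.70 to 6.80, with overlap (4.70 to 6.44 and 6.23 to 7.67). Between white and brown preadipocytes the Gapdh ratio (0.834 to 0.899 and 0.75 to 0.808) was lower in brown cells without overlap. The Pcx ratio (2.92 to 4.31 and 4.70 to 6.44) was higher in brown cells without overlap. These signs of RNA length thus differed with line in opposite directions. Their part in the results was not tested.

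Brown preadipocytes differed from white preadipocytes before any inducer was added. Of the 9 factors, 5 were higher in brown preadipocytes (Zic1, Prdm16, Ebf2, Ebf1 and Ebf3), 1 was lower (Eya1), Tbx15 did not pass and 2 were not tested. In this comparison 55.1% of all genes tested were called (31.3% higher and 23.8% lower in brown), against 6 of 7 factors. The median difference of the 7 tested factors was 2.21, and that of all genes 0.07. After differentiation the same 5 factors were higher in brown cells and Eya1 was lower, and Tbx15 had joined it (5 higher and 2 lower, where 59.6% of all genes were called, 30.1% higher and 29.5% lower). A difference between lines was built into the passing of Prdm16, Zic1 and Eya1. The counts and the median of the factors therefore cannot be weighed against those of all genes.

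Zic1, a zinc-finger factor first known from the cerebellum, gave signals of 21.1, 9.86 and 10.2 in white preadipocytes and 3.78, 7.89 and 2.18 in white adipocytes. In brown preadipocytes it gave 4396, 4134 and 5092, and in brown adipocytes 3984, 3784 and 3600.4. All 6 white arrays were below the filter level and all 6 brown arrays were far above it, with no overlap. The difference between lines was 7.28 (SE 0.153, adjusted p = 3.81e-10) in preadipocytes and 7.54 (SE 0.153, adjusted p = 2.15e-10) in adipocytes. A second Zic1 probe set, 1439627_at, showed the same order, with 2.68 to 18.8 in white preadipocytes and 1019.6 to 1293 in brown preadipocytes. Its differences were 5.58 and 5.25 (SE 0.321 each).

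Within the brown line Zic1 stood at 4541 ± 495 before and 3789.5 ± 192 after differentiation, which the fit put at −0.26 (SE 0.153, adjusted p = 0.179). The change passed the threshold with a pseudocount of 64 (adjusted p = 0.029) or with scaling to the hybridization controls (adjusted p = 0.0209). In the white line the fit called a fall of Zic1 (−0.52, adjusted p = 0.0134), although all of its signals there were below the filter level. The second probe set went the other way in white cells (0.22, adjusted p = 0.592), and the call was lost with a pseudocount of 64, with the mean of the probe sets, with only the arrays compared, and without white adipocyte replicate 3 (adjusted p = 0.0521).

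Prdm16 was read by 4 probe sets. On the brightest, 1440870_at, signals were 0.622, 4.29 and 14.3 in white preadipocytes, 0.80, 2.84 and 1.64 in white adipocytes, 407, 404 and 474 in brown preadipocytes, and 668, 722 and 699 in brown adipocytes. White and brown arrays did not overlap, and the brown adipocyte arrays were all above the brown preadipocyte arrays. The difference between lines was 4.35 (SE 0.179, adjusted p = 2.62e-08) in preadipocytes and 5.33 (SE 0.179, adjusted p = 3.96e-09) in adipocytes. These sizes depend on the processing, from 1.92 with the mean of the probe sets to 6.40 with a pseudocount of 1 in preadipocytes, and from 2.31 to 8.05 in adipocytes.

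The other 3 Prdm16 probe sets were dim. Of these, 1429309_at was above the filter level on 11 of the 12 arrays, every white array included, with 48.7 to 59.6 in white adipocytes. In adipocytes all 3 were higher in the brown line, by 1.92 (1429308_at), 1.41 (1440745_at) and 0.59 (1429309_at, adjusted p = 0.0429). In preadipocytes 1429309_at did not pass (0.36, adjusted p = 0.208), and its white signals of 41.4 to 55.0 overlapped the brown ones of 38.6 to 80.1. With differentiation of the brown line, Prdm16 rose by 0.69 on the brightest probe set (SE 0.179, adjusted p = 0.00739), a signal ratio of 1.63. The other 3 sets gave 0.44, −0.01 and 0.63, and none of them passed (adjusted p = 0.117, 0.982 and 0.0756). With a pseudocount of 1 the rise did not pass either (adjusted p = 0.386).

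Ebf2 was the member with a strong line difference and signal in both lines. On its brightest probe set, 1418494_at, white preadipocytes gave 207, 228 and 218, white adipocytes 358, 376 and 407, brown preadipocytes 3062, 3173 and 3022, and brown adipocytes 5517, 5858 and 5739. No pair of groups overlapped, and the order was white preadipocytes, white adipocytes, brown preadipocytes and brown adipocytes. The brown signal was 14.2 times the white one in preadipocytes and 15.0 times in adipocytes, with log2 differences of 3.73 and 3.85, SE 0.0649 each (adjusted p = 1.34e-10 and 1.38e-10).

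Ebf2 also rose with differentiation in both lines. The rise was 0.76 (SE 0.0649, adjusted p = 2.52e-06) in white cells and 0.88 (SE 0.0649, adjusted p = 1.07e-06) in brown cells. The difference between these rises was 0.12 (SE 0.0918, adjusted p = 0.309), which did not pass. The probe set 1449102_at rose by 1.36 and 1.13. The dimmest set, 1449101_at, rose in brown cells (0.65, adjusted p = 0.0452) and read 47.2 to 76.7 before and 24.6 to 66.1 after differentiation in white cells, where the groups overlapped (adjusted p = 0.466).

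**Figure D2:**
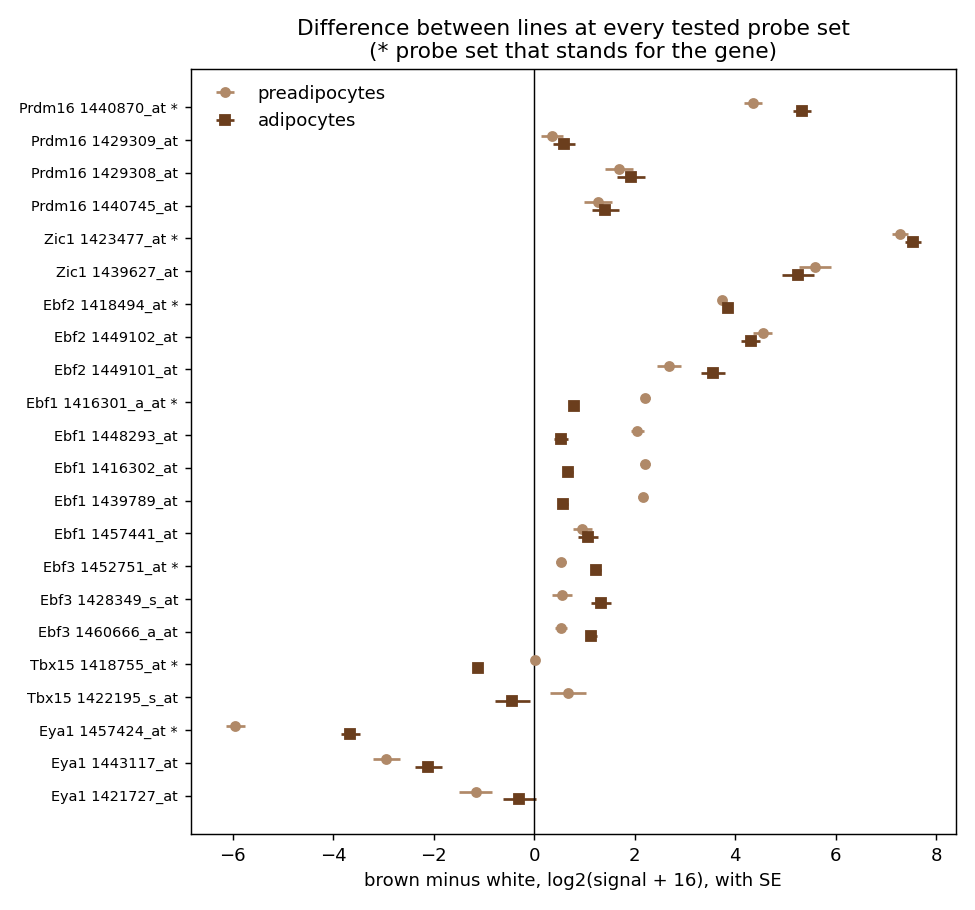
Brown minus white difference in log2(signal + 16) at the 22 tested probe sets of the 7 tested factors, with SE, for preadipocytes (circles) and adipocytes (squares). All probe sets of Prdm16, Zic1 and the 3 Ebf genes lie right of 0, those of Eya1 lie left of it, and 4 of the 5 Ebf1 probe sets lie nearer 0 in adipocytes than in preadipocytes.

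The other early B-cell factors, Ebf1 and Ebf3, were above the filter level on all 12 arrays on their brightest probe sets and differed less between the lines. Ebf1, which takes part in B-cell and fat cell formation, gave 921, 804 and 941 in white preadipocytes and 2259, 2581 and 2411 in white adipocytes. In the brown line it gave 4141, 3908 and 4431 before and 4081, 4339 and 4075 after differentiation. It rose in white cells by 1.43 (SE 0.0827, adjusted p = 1.3e-07), or 2.72 times, and in brown cells the groups overlapped (log2 change 0.00, adjusted p = 0.98). With scaling to the hybridization controls the brown value was −0.21 (adjusted p = 0.0494).

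The lines therefore stood closer for Ebf1 after differentiation, at 0.78 (SE 0.0827, adjusted p = 1.55e-05), than before it, at 2.21 (SE 0.0827, adjusted p = 1.38e-08). The difference in change was −1.43 (SE 0.117, adjusted p = 4.25e-06). The probe sets 1448293_at, 1416302_at and 1439789_at gave differences in change of −1.52, −1.53 and −1.59. The dim set 1457441_at did not (0.11, adjusted p = 0.781), with signals of 29.6 to 54.6 and 40.6 to 64.5 before and after white differentiation.

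Ebf3 fell in both lines and fell further in white cells. Its brightest probe set, 1452751_at, read 666, 736 and 834 in white preadipocytes and 344, 355 and 317 in white adipocytes, with a fitted change of −1.10 (SE 0.089, adjusted p = 1.71e-06). In the brown line it read 1117, 1135 and 997 before and 827, 807 and 806 after differentiation, with a fitted change of −0.40 (SE 0.089, adjusted p = 0.00278). Within each line the groups did not overlap. The difference in change was 0.69 (SE 0.126, adjusted p = 0.00104), and the brown line lay above the white by 0.53 (adjusted p = 0.000528) in preadipocytes and 1.23 (adjusted p = 9.13e-07) in adipocytes. All 3 Ebf3 probe sets gave white falls between −1.0 and −1.15. Their brown values lay between −0.36 and −0.40, of which that of 1428349_s_at did not pass (adjusted p = 0.156). In white cells Ebf1 and Ebf2 thus rose and Ebf3 fell, and in brown cells Ebf2 rose, Ebf3 fell and Ebf1 did not pass.

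**Figure D3:**
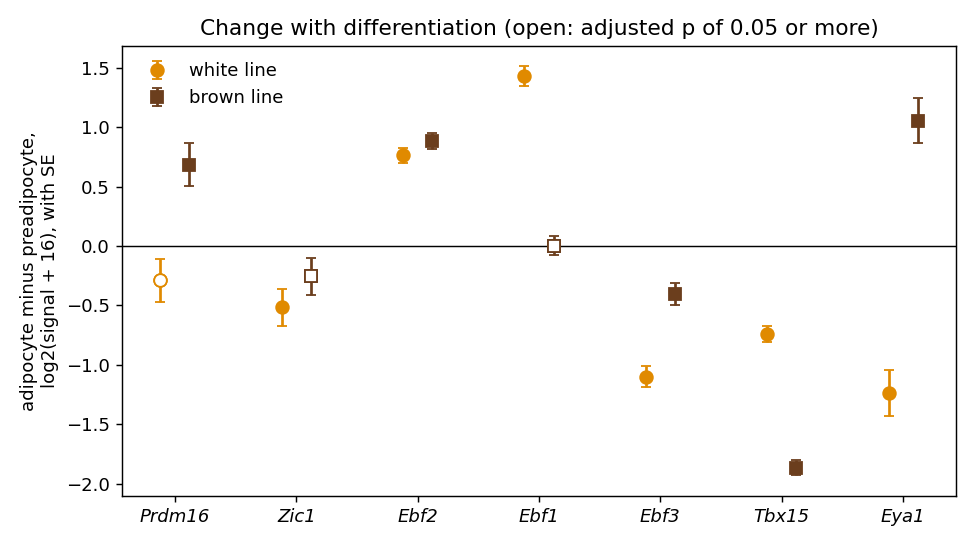
Change from preadipocyte to adipocyte in log2(signal + 16), with SE, in the white line (circles) and brown line (squares) for the 7 tested factors; open symbols did not pass. Ebf1 rises in the white line alone by the test, Ebf2 rises by similar amounts in both lines, and Tbx15 falls further in the brown line.

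With white differentiation, 2 of the 9 factors rose (Ebf1 and Ebf2) and 4 fell (Ebf3, Tbx15, Eya1 and, below the filter level, Zic1), where 61.3% of all genes tested were called (30.1% up and 31.2% down). With brown differentiation, 3 rose (Prdm16, Ebf2 and, near the filter level, Eya1) and 2 fell (Ebf3 and Tbx15), where 58.7% of all genes were called (27.2% up and 31.6% down). The change differed between the lines for 5 factors (Prdm16, Ebf1, Ebf3, Tbx15 and Eya1), against 51.1% of all genes (23.6% with the higher change in brown and 27.5% with the lower). With 7 factors tested, all 3 counts lie near those backgrounds.

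On its brighter probe set, Tbx15 differed between the lines after differentiation and not detectably before it. That set, 1418755_at, gave 839, 931 and 949 in white preadipocytes and 892, 929 and 919 in brown preadipocytes, overlapping values with a difference of 0.01 (SE 0.0644, adjusted p = 0.897). With equal medians of the arrays this difference became −0.26 and passed (adjusted p = 0.0222), on a scaling that moved the median of all genes from 0.07 to −0.18. White adipocytes gave 567, 521 and 519, and brown adipocytes 241, 241 and 236. It fell in both lines, with a log2 change of −0.74 (white) and −1.86 (brown), SE 0.0644 each (adjusted p = 2.95e-06 and 5.3e-09). The difference between adipocytes was −1.11 (SE 0.0644, adjusted p = 1.79e-07), and the difference in change was −1.12 (SE 0.091, adjusted p = 3.9e-06). The dim probe set 1422195_s_at fell in brown cells (−1.35, adjusted p = 0.00829) and did not pass in white cells (−0.24, adjusted p = 0.603). Between the lines it did not show the same pattern. Its preadipocyte signals did not overlap, at 30.7 to 67.1 in white and 71.8 to 96.4 in brown cells (0.67, adjusted p = 0.142). Its adipocyte difference (−0.44, adjusted p = 0.324) and its difference in change (−1.11, adjusted p = 0.0973) did not pass.

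Eya1, a phosphatase and coactivator that works with homeobox proteins, was high in the 3T3-L1 line. Its difference between lines ran opposite to those of Zic1, Prdm16, Ebf1, Ebf2 and Ebf3. The probe set 1457424_at gave 1354, 1333 and 1223 in white preadipocytes and 565, 542 and 524 in white adipocytes. In brown preadipocytes it gave 2.91, 3.76 and 9.75, and in brown adipocytes 46.3, 22.5 and 20.0. White arrays lay above brown arrays without overlap at both stages, with log2 differences (brown minus white) of −5.95 (SE 0.191, adjusted p = 5e-09) in preadipocytes and −3.66 (SE 0.191, adjusted p = 8.32e-08) in adipocytes. A second probe set, 1443117_at, gave −2.94 and −2.11. The third, 1421727_at, was dim, with differences of −1.17 (adjusted p = 0.0131) in preadipocytes and −0.30 (adjusted p = 0.467) in adipocytes.

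Within the white line Eya1 fell (log2 change −1.24, SE 0.191, adjusted p = 0.000228), and its mean signal was 2.40 times lower. On 1443117_at the white value was −0.34 and did not pass (adjusted p = 0.326). The call of a rise in brown cells (1.06, SE 0.191, adjusted p = 0.000789) rests on signals of which only 1 of 6 was above the filter level. The difference in change of 2.29 (SE 0.27, adjusted p = 5.68e-05) includes that brown value. The difference between lines ranged from −3.35 with the mean of the probe sets to −7.80 with a pseudocount of 1 in preadipocytes, and from −2.02 to −4.25 in adipocytes.

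Lhx8, a LIM homeobox factor, and Tbx1, a T-box factor, had 1 probe set each. The Lhx8 signals ran from 0.802 to 32.1 in white preadipocytes, 5.54 to 19.8 in white adipocytes, 2.04 to 4.96 in brown preadipocytes and 2.77 to 10.8 in brown adipocytes. They overlapped between groups, and expression was not detectable by this probe set at these signals. Tbx1 gave 2.40 to 7.09 and 2.30 to 7.74 in white preadipocytes and adipocytes, 10.5, 24.3 and 14.7 in brown preadipocytes, and 38.9, 30.2 and 68.0 in brown adipocytes. Each brown preadipocyte array was above every white array, and each brown adipocyte array above every brown preadipocyte array, but 1 of the 12 arrays exceeded the filter level. Without the filter, the difference between brown and white adipocytes was 1.58 (SE 0.23, adjusted p = 0.000242), and the change in brown cells 0.90 (SE 0.23, adjusted p = 0.00906). That between brown and white preadipocytes was 0.62 (SE 0.23, adjusted p = 0.0561) and did not pass.

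The spread of each factor over the 12 arrays was split into parts for line, stage (before or after differentiation), their interaction and arrays within a group. Line held 99.5% of the sum of squares for Zic1, 98.2% for Prdm16, 95.4% for Ebf2 and 93.9% for Eya1. It held 68.2% for Ebf1, 52.0% for Ebf3 and 13.0% for Tbx15, and stage held 73.0% for Tbx15. Over all genes tested the median share of line was 19.4% and the 90th percentile 73.7%, so Zic1, Prdm16, Ebf2 and Eya1 lay above the latter and the other 3 did not. For Zic1, Prdm16 and Eya1 a difference between lines was built into passing the filter. Their place above the 90th percentile therefore cannot be weighed against all genes. Ebf2 was above the filter level on all 12 arrays on its brightest probe set, so this limit does not apply to it. The 90th percentile is a description of these 12 arrays and no test.

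**Figure D4:**
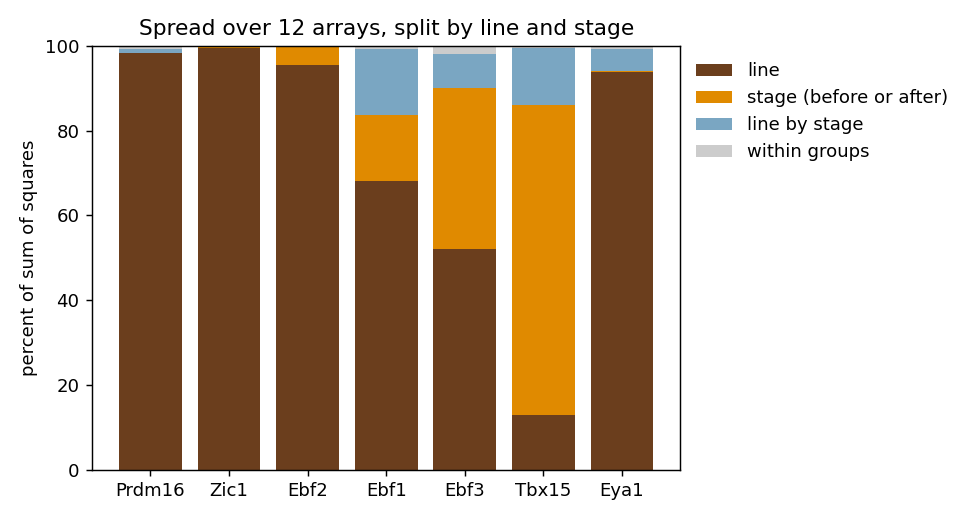
Percent of the sum of squares of log2(signal + 16) over the 12 arrays held by line, stage, line by stage and arrays within groups, for the 7 tested factors. Line holds over 93% for Zic1, Prdm16, Ebf2 and Eya1, and stage holds 73.0% for Tbx15.

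Across the 12 arrays the log2 signals of Prdm16 and Zic1 had a Pearson correlation of 0.987, Prdm16 and Ebf2 of 0.979, and Zic1 and Eya1 of −0.960. With 4 groups of 3 arrays these values mostly restate the 4 group means. The genes whose pattern was most like a member's, among tested genes with a range of at least 1, were Mme (0.995), Eif2s3y (0.995) and Zdhhc21 (0.994) for Prdm16, and St6galnac2 (0.995), Zfp518a (0.994) and Nelfcd (0.994) for Zic1. For Ebf2 they were Sh3bgrl2 (0.999), Cdkn1c (0.999) and Psmb9 (0.996), and for Ebf1 they were Alpl (0.991), Rin2 (0.990) and Carf (0.988). Ebf3 was closest to Ckap2l (0.991), Cnot6 (0.989) and Ube2s (0.988), Tbx15 to Cpe (0.997), Fzd1 (0.997) and Mapre2 (0.996), and Eya1 to Mdm1 (0.996), Tfap2a (0.992) and Osbpl3 (0.986). Cdkn1c, an imprinted inhibitor of the cell cycle, shared the course of Ebf2 with means of 3.04, 43.7, 3306 and 7682 in white preadipocytes, white adipocytes, brown preadipocytes and brown adipocytes.

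Of 24 listed paralogs, 22 were on the array and 14 were tested. In preadipocytes 5 were higher in the brown line, 5 were lower and 4 did not pass (median difference 0.23, against 0.07 for all genes, of which 31.3% were higher and 23.8% lower). In adipocytes 5 were higher, 1 was lower and 8 did not pass, where 59.6% of all genes were called. Eya4 gave 77.6, 66.6 and 62.7 in white preadipocytes and 2207, 2177 and 2511 in brown preadipocytes. The difference of Eya4 was 4.77 (SE 0.111, adjusted p = 6.63e-10) where that of Eya1 was −5.95. In adipocytes Eya4 was at 82.9 to 113 in white and 741 to 752 in brown cells, a difference of 2.81 (SE 0.111, adjusted p = 1.14e-08).

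Zic4, whose extent overlaps that of Zic1 in the RefSeq table (assembly GRCm38), was also higher in brown cells, by 2.08 (SE 0.272, adjusted p = 9.53e-05) in preadipocytes and 1.82 (SE 0.272, adjusted p = 0.000196) in adipocytes. It rose with differentiation in both lines, by 1.20 in white and 0.94 in brown cells. Zic5 was higher in brown adipocytes (1.44). Tbx18 followed Tbx15: no call between preadipocytes (0.12, adjusted p = 0.196), then falls in white (−1.55) and brown cells (−2.92) and a difference between adipocytes of −1.24 (adjusted p = 2.58e-07). Lhx9, a relative of Lhx8, fell from 533 ± 35.1 to 18.6 ± 2.97 in brown cells. Among the Prdm16 relatives, Mecom fell in both lines (−1.06 in white, −0.80 in brown), and Prdm4 fell in white (−1.0) and rose in brown cells (0.42).

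**Figure D5:**
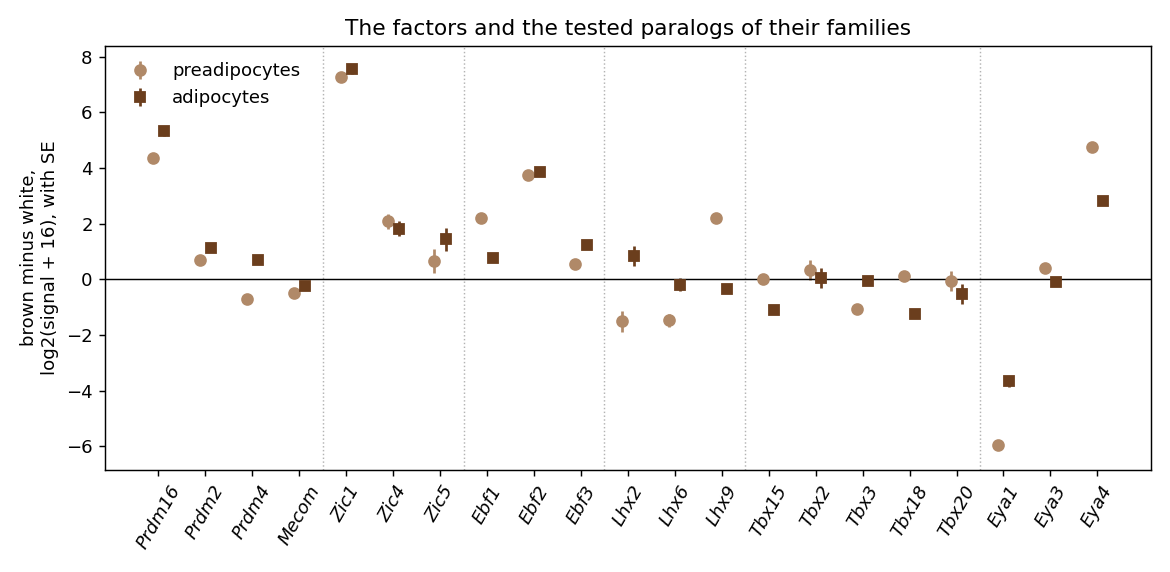
Brown minus white difference in log2(signal + 16), with SE, for the 7 tested factors and the 14 tested paralogs, in preadipocytes (circles) and adipocytes (squares), with dotted lines between families. Eya1 and Eya4 lie on opposite sides of 0, Zic1 and Zic4 on the same side, and Tbx15 and Tbx18 near 0 in preadipocytes and below it in adipocytes.

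Of 21 partners and regulators of brown fate tested, 13 were higher in brown preadipocytes, 5 were lower and 3 did not pass (median difference 0.34, against 0.07 for all genes, of which 31.3% were higher and 23.8% lower). In adipocytes 10 were higher, 4 were lower and 7 did not pass (median 0.18, against 0.00, with 30.1% of all genes higher and 29.5% lower). The coactivator Ppargc1a, a regulator of mitochondrial genes, went from 34.3 ± 7.49 to 327 ± 15.1 in white cells and from 497 ± 37.7 to 2472 ± 191 in brown cells. Brown cells were higher by 3.36 (SE 0.108) before and 2.86 (SE 0.108) after differentiation. Irf4, a factor known to work with Ppargc1a, rose in brown cells by 1.92 (adjusted p = 0.000105) and was below the filter level on white arrays. Nfia, which works with Pparg at brown fat genes, was higher in brown preadipocytes by 2.20 and in brown adipocytes by 1.13.

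Zfp423, a zinc-finger factor that holds back the brown programme in white fat cells, crossed over. It rose from 69.4 ± 17.9 to 632 ± 34.7 in white cells (2.95, SE 0.14, adjusted p = 2.95e-08) and fell from 717 ± 30.8 to 388 ± 38.1 in brown cells (−0.87, SE 0.14, adjusted p = 0.000365). The difference in change was −3.81 (SE 0.198, adjusted p = 1.86e-07). Cebpb, a partner of Prdm16, rose in both lines, by 1.00 in white and 1.88 in brown cells.

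For target genes of the brown programme the brown change minus the white change was above 0 and passed in 9 of 16 (median 1.71, against −0.05 for all genes, of which 23.6% passed in this direction). It was below 0 and passed for S100b, a calcium-binding protein, which rose in white (1.24) and fell in brown cells (−0.79). Of 20 listed, 17 were on the array and 16 were tested. Between preadipocytes 5 were higher in brown cells and 11 did not pass (median difference 0.26, against 0.07), a share near the 31.3% of all genes that were higher. Between adipocytes 11 were higher, 1 was lower and 4 did not pass (median 1.83, against 0.00), where 30.1% of all genes were higher and 29.5% lower. With brown differentiation 14 rose, 1 fell and 1 did not pass, and with white differentiation 12 rose and 4 did not pass, where 27.2% and 30.1% of all genes rose. Cidea, found on lipid droplets in brown fat, gave 22.5, 5.51 and 3.22 in brown preadipocytes, all below the filter level, where the Prdm16, Zic1 and Ebf2 signals were already high. In brown adipocytes it gave 6365, 6960.4 and 6936. Ucp1, the uncoupling protein of brown fat, gave 30.5, 22.8 and 1.66 in brown preadipocytes and 333, 468 and 346 in brown adipocytes. It stayed below the filter level in white cells, at 2.80 to 13.8 before and 4.79 to 8.36 after differentiation. Between adipocytes the differences of Cidea, Mb, Ppara and Ucp1 were 6.51, 5.73, 4.30 and 4.16. Their order depends on the processing: that of Ucp1, with white signals below the filter level, ranged from 2.66 with a pseudocount of 64 to 5.76 with a pseudocount of 1, and that of Mb fell to 2.88 with the mean of the probe sets.

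Of 7 beige markers tested, 4 were higher in brown preadipocytes and 3 did not pass, where 55.1% of all genes were called. In adipocytes 2 were higher in brown cells and 5 did not pass, where 59.6% of all genes were called. Tmem26, a membrane protein used as a beige marker, was at 270 ± 17.5 in brown preadipocytes and at 22.4 to 30.6 on average in the other groups. Cited1 was below the filter. The skeletal muscle lineage, which shares progenitors with classical brown fat in the mouse, was read in part. Of 12 genes 7 were tested, and the regulators Myf5, Myog, Myf6 and Pax7 and the myosin gene Myh1 were below the filter. With brown differentiation 1 rose (Ckm) and 4 fell (Pax3, Six4, Acta1 and Actn3), and those 4 were lower in brown than in white adipocytes, where 31.6% of all genes fell and 29.5% were lower. In preadipocytes 1 (Six4) was lower in brown cells and 6 did not pass. Between adipocytes the call was lost in 7 of 24 processing alternatives for Six4 and 3 of 24 for Pax3. It was lost in 2 of 23 for Actn3 and 0 of 23 for Acta1. The preadipocyte call of Six4 was lost in 4 of 24, and the rise of Ckm in 3 of 23.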

How the data were processed

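Probe set signals of 12 arrays were used as deposited: linear intensity values. The submitters' processing notes name Affymetrix Expression Console as the authors' tool. Its version and the method that combined probes are not given here. The trimmed mean (2% at each end) of every array was 500.003 to 500.004, so total RNA per cell cannot be read. The number of arrays limits the precision.

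The table held 45101 probe sets, of which 34945 carried 1 gene symbol, 932 several, and 9211 were not listed in the platform annotation; 64 were controls. Gene identifiers of 34741 matched the RefSeq table, with 0 symbols changed. The probe set with the highest mean signal stood for a gene. Genes above the 40th percentile of the array on at least 3 arrays were tested (13752 of 18193). Limma 3.58.1 in R 4.3.3 was fitted to log2(signal + 16) with 4 group means and eBayes, two-sided, with Benjamini-Hochberg adjustment over all genes tested. A second fit held each of 25833 tested probe sets; values given by probe set identifier come from it. The fit was tested on simulated data. Replicate numbers did not pair the arrays: over 18 same-numbered pairs, deviations from group means correlated at −0.0292 to 0.0668. Alternatives are given below. Python 3.11.15 and matplotlib 3.10.9 served for promoters and plots.

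The members and lists were chosen with earlier results of these data known. Named genes were all members, up to 4 of each list with the largest called change, Ucp1, Cidea and Ppargc1a, and the 3 genes closest in pattern to each member. Mecom, Cited1, the cell type markers (Pparg apart) and the muscle genes below the filter fall outside that rule and were named after their values were seen. Protein sequences were not used here.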

Additional observations from a re-analysis of the deposited data

Results flagged for a closer look

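For 5 of the 7 tested factors the change with differentiation differed between the lines by the interaction term of the limma fit. The brown change minus the white change was 2.29 for Eya1, 0.98 for Prdm16 and 0.69 for Ebf3, and it was −1.43 for Ebf1 and −1.12 for Tbx15. On the brightest probe sets, all groups were above the filter level for Ebf1, Ebf3 and Tbx15. On those sets the white arrays of Prdm16, and all but 1 of the brown arrays of Eya1, were below it. The dimmer Prdm16 set 1429309_at was above it on every white array. The difference for Prdm16 was lost with a pseudocount of 1 (adjusted p = 0.171) and with the mean of its probe sets (adjusted p = 0.105).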

How the results depend on the processing

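Counts of factors called moved by less than 1.5 times under every alternative: 5 to 7 for white differentiation, 4 to 7 for brown differentiation, 4 to 6 for the difference in change, 6 to 7 between preadipocytes and 7 to 8 between adipocytes, leaving out each array included. The replicate block left the counts at 6, 5, 5, 6 and 7, as without it, and changed no call of a factor. Signs turned in 12 of 833 values of the factors, none of them past the threshold as reported, and in 5 of 2718 values of the other named genes, of which Sp100 and Ppargc1a had passed. A call was lost with its sign kept in 7 values of the factors and in 61 values of the other named genes. Prdm16 in white differentiation was 0.0395 with the mean of probe sets, and 1 array decided its call there: without white preadipocyte replicate 1 it was −0.48 (adjusted p = 0.0226). Ebf1 in brown differentiation was −0.0124 with quantile normalization, −0.21 with hybridization control scaling, −0.00719 with less specific probe sets left out, and −0.0411 to 0.0493 without 1 array. Zic1 in the difference in change was −0.0752 with a pseudocount of 64 and −0.0355 with the mean of probe sets. Tbx15 between preadipocytes was −0.0581 with quantile normalization, −0.26 with equal medians, and −0.0416 to 0.0454 without 1 array. Cidea between preadipocytes was −0.47 to 0.12 without 1 array. Ppargc1a, called at −0.50 in the difference in change, was 0.18 with a pseudocount of 64 and 0.17 with less specific probe sets left out, and Sp100 in white differentiation 0.0988 with the latter. The cause of these shifts was not tested. Hybridization control scaling moved the median change of all genes to −0.23 in white and −0.22 in brown differentiation; calls of higher genes were then 2949 of 8594 and 2639 of 8268, against 4141 of 8427 and 3736 of 8078. Between preadipocytes equal medians gave 2729 higher of 7682 calls, against 4307 of 7581. Differences of Prdm16, Zic1 and Eya1 between lines are limited by signals near the floor.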

Other observations

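Of 14 tested factors that pattern the body axis or mark white fat, 7 were higher and 4 lower in brown preadipocytes (median difference 0.77, against 0.07 for all genes, of which 31.3% were higher and 23.8% lower). In brown adipocytes 5 were higher and 6 lower (median −0.32, against 0.00, with 30.1% and 29.5% of all genes). With brown differentiation 11 fell by the limma fit (median −1.18, against −0.03), where 31.6% of all genes fell. Hoxc8 gave 3779 to 4877 in brown preadipocytes and 0.687 to 20.7 in white preadipocytes, a difference of 7.30 (SE 0.299, adjusted p = 2.58e-08). The white signals were below the filter level, and the value ranged from 5.80 to 8.99 with the processing. Shox2, a homeobox factor, was higher in the white line, with brown minus white differences of −1.65 before and −3.36 after differentiation. Nr2f1, an orphan nuclear receptor, fell in both lines (log2 change −3.34 in white and −2.28 in brown cells). Sfrp2, a Wnt modulator, went from 8718 ± 691 to 888 ± 165 in white cells and from 12771 ± 586 to 37.2 ± 17.6 in brown cells.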
